A study of Mus musculus with 12 samples.

Results

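The voltage-gated calcium channel genes were examined in the frontal cortex of mice without the RNA-editing enzyme ADAR2. The 8 genes encode pore-forming alpha1 subunits: Cacna1c and Cacna1d (L-type channels), Cacna1a (P/Q-type), Cacna1b (N-type), Cacna1e (R-type), and Cacna1g, Cacna1h and Cacna1i (T-type). They were taken by name, with earlier results of these data known, and all 8 were found among the 15191 genes of the gene table. Their exon bins numbered 382 of 156805 in the exon table. Of 143 editing sites, 2 lay in these genes, both in Cacna1d. The remaining 7 genes had no listed site.

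Total RNA was sequenced in 12 libraries from male mice of strain C57BL/6. The knockout group held 6 libraries of genotype Adar2-/-/Gria2R/R, and the control group 6 of genotype Adar2+/+ Gria2R/R, from litter mates. Both groups thus carry Gria2R, an allele in which the genome encodes the arginine that editing normally places in this AMPA receptor subunit, and which lets mice live without ADAR2. The labels give no age. Each table held group values and the authors' p-values, so no value per library, SD or depth can be shown. The p-values reach no further than these libraries as the authors modelled them. For the editing sites it is not stated whether the p-values measure the spread between libraries or the sampling of pooled reads.

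The alpha1 subunit forms the calcium pore and senses voltage. L-type channels open in dendrites and cell bodies and link activity to transcription and pacemaking, P/Q-, N- and R-type channels trigger transmitter release, and T-type channels open near rest and support burst firing. In the C-terminal tail of L-type and P/Q-, N- and R-type channels lies the IQ domain, a short helix that binds calmodulin and through it lets entering calcium close the channel. ADAR2 converts adenosines of paired RNA stretches to inosines, which ribosomes and sequencers take for guanosines. In Cacna1d, editing in the IQ domain exchanges amino acids of this helix and is known to weaken inactivation by calcium.

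The edited stretch is shown first, beside the same stretch of the genes that share the IQ domain, since the codons show where an A-to-G change could give the listed exchanges. The sequences are coding strands of GENCODE M21 principal transcripts on GRCm38, 5′ to 3′. Capitals mark the codon aligned with the I/M codon of Cacna1d and the codon aligned with its Y/C codon.
Cacna1d: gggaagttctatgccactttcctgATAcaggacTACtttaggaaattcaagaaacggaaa
Cacna1c: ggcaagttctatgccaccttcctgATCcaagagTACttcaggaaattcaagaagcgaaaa
Cacna1e: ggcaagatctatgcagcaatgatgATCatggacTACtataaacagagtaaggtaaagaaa
Cacna1b: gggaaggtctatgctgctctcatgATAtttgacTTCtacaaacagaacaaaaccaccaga
Cacna1a: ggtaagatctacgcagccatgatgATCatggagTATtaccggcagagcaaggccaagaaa

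The Cacna1d stretch lies in exon 39 of 47 at chr14:30066088-30066147 on the minus strand, and the marked codons are numbers 1619 and 1622 of 2166. The Cacna1c stretch lies at chr6:118604488-118604547 (minus strand), that of Cacna1e at chr1:154412467-154412526 (minus strand), that of Cacna1b at chr2:24617710-24617769 (minus strand) and that of Cacna1a at chr8:84629842-84629901 (plus strand). The listed sites stand on mm9, another build, and were placed by their type and spacing, not by converting positions. On mm9 they are 8 bases apart on chromosome 14, I/M at 30879307 and Y/C at 30879299. In the Cacna1d coding sequence 3 places hold an ATA isoleucine codon and a tyrosine codon with this spacing. One of them has the glutamine codon CAG next to the isoleucine, the I and Q of the domain's name, and was taken as the edited place. The glutamine is not shared by all genes shown: Cacna1e and Cacna1a have ATG there and Cacna1b has TTT.

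Both edited adenosines stand in the same bases, TAC, with T before and C after the A. Of the 60 bases shown for Cacna1d, 52 were identical in Cacna1c, 37 in Cacna1e, 36 in Cacna1b and 34 in Cacna1a. The isoleucine codon was ATA in Cacna1d and Cacna1b, and ATC in Cacna1c, Cacna1e and Cacna1a. An A-to-G change at the last base turns ATA into the methionine codon, and ATC has no A there. The tyrosine codon was TAC in Cacna1d, Cacna1c and Cacna1e and TAT in Cacna1a, all with the A that the Y/C change uses, while Cacna1b had TTC. Cacna1d was thus the one gene of the 5 with an A at both positions. The T-type genes are not among those said above to hold the IQ domain, so their aligned codons may not correspond to these. The aligned stretches of Cacna1g, Cacna1h and Cacna1i shared 23, 12 and 16 of 60 bases with Cacna1d. They held neither an isoleucine nor a tyrosine at the marked codons. These are features of the reference sequence, and an A there does not show that a gene is edited.

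Editing of Cacna1d was present at both sites in the control and listed at 0 at both without ADAR2. In the authors' deposited table the I/M site had 37.6% edited reads in the control, 0 in the knockout, and an adjusted p of 1.89e-13. For the Y/C site the authors' deposited table gave 19.2% in the control, 0 in the knockout, and an adjusted p of 2.01e-05. Both sites therefore fell, by 37.6 and 19.2 points. Among all sites 39.2% fell by the same threshold, an adjusted p under 0.05, and among sites with an amino acid change 86.4% did, so a fall is the usual finding in that class. How many reads covered each site is not given, so no interval can be set around these percentages and no upper limit around the values listed as 0.

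**Figure D1:**
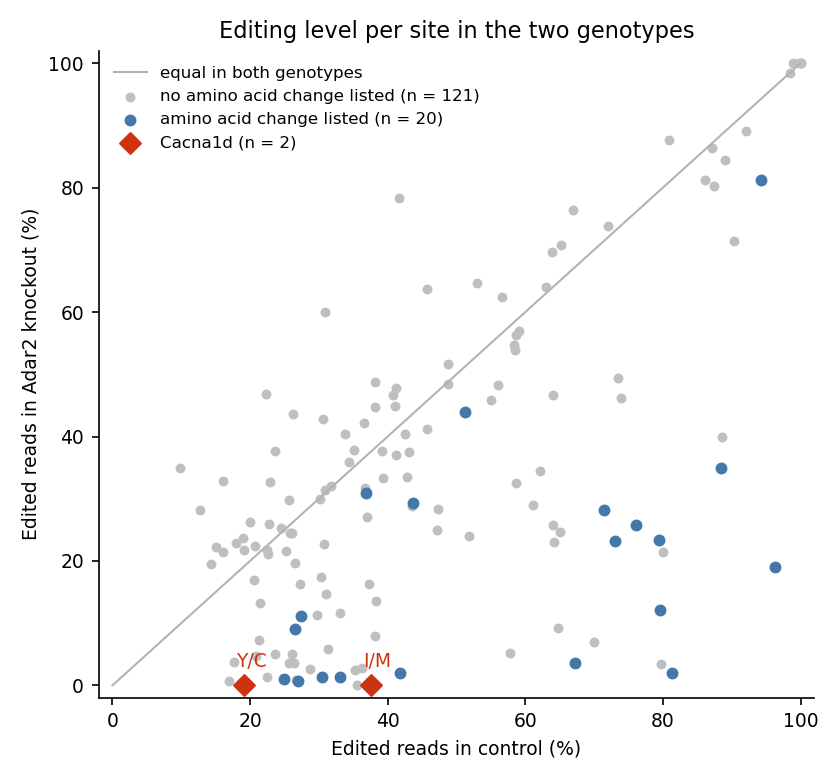
Each point is an editing site, with the percent of edited reads in the control on the x axis and in the Adar2 knockout on the y axis. Red diamonds are the Cacna1d sites at 37.6% (I/M) and 19.2% (Y/C) in the control and 0 in the knockout. Blue points are the other 20 sites with a listed amino acid change, grey points are the remaining 121 sites, and the line marks equal values.

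The pair differed in the control. The I/M site was edited 1.96 times as often as the Y/C site, 18.4 points apart, although both stand in TAC and their positions are only 8 bases apart. No test of this difference was possible without coverage. In level the Cacna1d sites were not among the strongly edited ones: of 22 amino acid sites, I/M ranked 14th and Y/C 22nd, the last, by percent in the control. By the size of the fall in points they ranked 11th and 16th.

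The remaining level was also compared across sites. Of the 22 amino acid sites, the 2 of Cacna1d were the ones listed at 0, and over all 143 sites a site in a SINE repeat of the Ttbk2 3′ UTR was the only other, at 35.5% in the control in the authors' deposited table. The other 17 amino acid sites that fell kept between 0.71% and 81.2% edited reads. As a share of the control level, computed here from the listed percentages, they kept between 2.42% and 86.1%, with a median of 19.8%. A site with few reads is more readily listed at 0, and the part of coverage in this difference was not tested.

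Amino acid sites edited to a like degree in the control give the nearest comparison. Beside the I/M site stood Sfi1 Q/R, Flna Q/R and Son R/G. In the authors' deposited table Flna, a filamin that crosslinks actin, went from 41.7% to 1.96%, which left 4.70% of its control level. For Son, a nuclear speckle protein that acts in splicing, the authors' deposited table gave 33.0% and 1.38%, which left 4.16%. Sfi1, a centrosome protein, did not pass (adjusted p = 0.594), with 36.8% and 31% as the authors' deposited table lists it.

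Beside the Y/C site stood Nova1, Cog3 and Unc80. The splicing regulator Nova1 kept 4.40% of its control level (25% and 1.10% in the authors' deposited table). Unc80, a subunit of the sodium leak channel, kept 2.63% (27.0% and 0.71% in the authors' deposited table). Cog3, a Golgi tethering factor, kept 34.4% (26.5% and 9.13% in the authors' deposited table). Sites of the same exchange in other channels are edited more in the control: Gabra3 I/M, in a GABA-A receptor subunit, was at 96.3%, and Grik2 Y/C, in a kainate receptor subunit, at 81.3%, both in the authors' deposited table. By the same computation they kept 19.8% and 2.42% of these levels.

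The mRNA levels of the 8 genes did not pass the test between the conditions. The gene table heads its conditions A and B without naming a genotype, so directions are given as A over B. Adarb1, the gene of ADAR2, was lower in A, at a log2 difference of -2.21 in the authors' deposited table (the authors' adjusted p = 3.06e-126). This difference was not used to name the conditions. Of the 8 genes, 0 had an adjusted p under 0.05 in the authors' table, which has the form that DESeq writes, against 0.0197% of all listed genes. With an unadjusted p under 0.05 the count was also 0, against 1.86% of all genes. In bulk tissue, fewer cells of a type and less RNA per cell cannot be told apart.

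The L-type genes were 1.14-fold and 1.17-fold higher in condition A, with no test passed. Over both conditions, Cacna1d averaged 1791 normalized counts in the authors' deposited table, and its log2 difference was 0.23 (p = 0.374, adjusted p = 1). Its paralog Cacna1c, the main L-type channel of the forebrain, had a mean of 2022 and a log2 difference of 0.19 in the authors' deposited table (p = 0.517, adjusted p = 1). The level of the edited gene thus differed by 1.17-fold between the conditions, while its edited share went from 37.6% and 19.2% to values listed as 0.

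The genes of the presynaptic channel types had log2 differences from 0.07 to 0.16. Cacna1a had a mean normalized count of 2719 and a log2 difference of 0.16 in the authors' deposited table (p = 0.422, adjusted p = 1). For Cacna1b the authors' deposited table gave a mean of 3981 and a log2 difference of 0.07 (p = 0.781, adjusted p = 1). Cacna1e, with a mean of 8272, had a log2 difference of 0.11 in the authors' deposited table (p = 0.457, adjusted p = 1). These 3 genes had the highest mean counts of the 8.

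Among the T-type genes, Cacna1g was the member with the largest difference and the smallest p. Its mean normalized count was 1589 and its log2 difference 0.28 in the authors' deposited table (p = 0.152, adjusted p = 1). Cacna1h, with a mean of 1046, was at 0.02 (p = 0.886, adjusted p = 1), and Cacna1i, with a mean of 1776, at 0.07 (p = 0.961, adjusted p = 1), both in the authors' deposited table. Within this subfamily the difference thus ran from 1.01-fold to 1.21-fold.

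**Figure D2:**
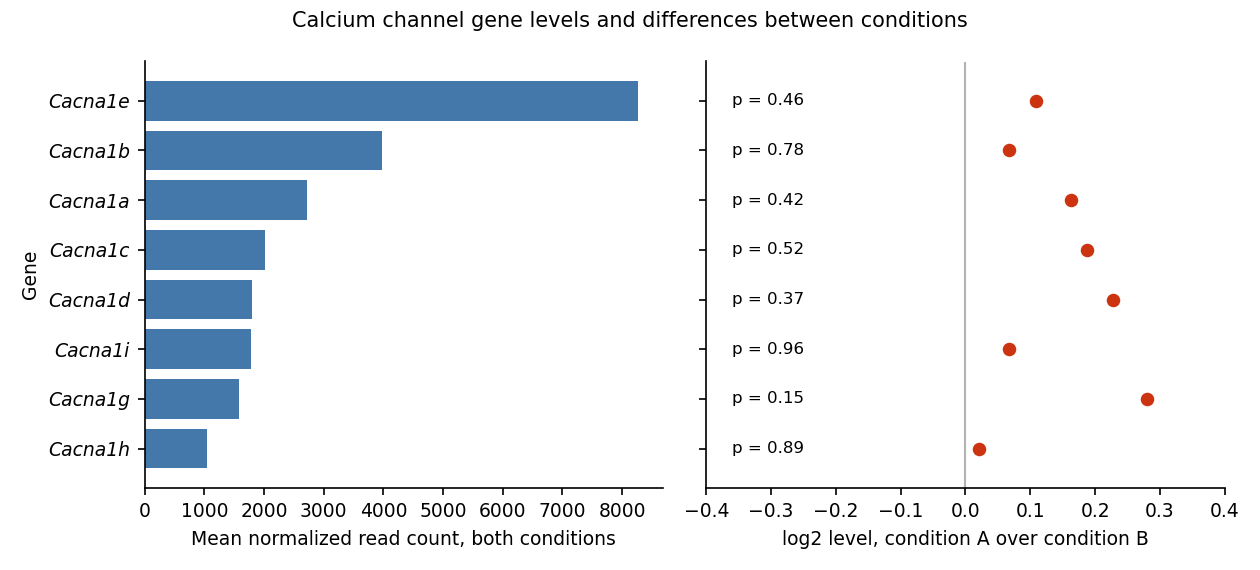
Bars on the left give the authors' mean normalized read count of each calcium channel gene over both conditions, and points on the right its log2 level in condition A over condition B with the authors' unadjusted p. No error bars are drawn because no value per library was given. All 8 points lie right of 0, from 0.02 for Cacna1h to 0.28 for Cacna1g.

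All 8 genes were higher in A, none past the threshold, where 52.9% of all listed genes were higher in A. The median log2 difference of the 8 was 0.14, against 0.01 over all genes. The 8 genes come from the same libraries and their levels can move together, so the shared direction is a description. Most marker lists of brain cell types had the same direction, neuronal or not. Of the inhibitory neuron markers 6 of 6 were higher in A, with log2 differences from 0.10 to 0.34, and of the excitatory cortical markers 4 of 5, with a range from -0.22 to 0.19. The 4 listed striatal markers were all higher in A, from 0.19 to 0.45. Of these, Ppp1r1b had an unadjusted p of 0.00242 in the authors' deposited table and did not pass the adjusted threshold. Adora2a, the highest, had a mean normalized count of 33.0. Among non-neuronal lists, 3 of 4 astrocyte markers (-0.06 to 0.27), 3 of 4 microglia markers (-0.03 to 0.28) and both listed choroid plexus markers (0.11 and 0.15) were higher in A. The lists with fewer were oligodendrocytes with 1 of 4 (-0.11 to 0.07) and endothelium with 1 of 3 (-0.04 to 0.04). The part of cell type content in the levels of the channel genes was not tested.

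Divided by the joined length of all annotated exons, the order of the levels changed. Per kilobase, Cacna1b came first with 400 normalized counts, then Cacna1e (328), Cacna1a (238), Cacna1i (180), Cacna1g (157), Cacna1d (142), Cacna1h (107) and Cacna1c (95.4). By coding length the order was that of the mean counts, from Cacna1e (1213 per kilobase) to Cacna1h (148), with Cacna1c (307) above Cacna1d (276). Which of the L-type genes was the more abundant therefore depends on the length used, and the annotation is not the one behind the counts. The spread over libraries is unknown, so no neighbours in either order can be called different.

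Exon usage was compared bin by bin. A bin is a part of an exon, and its value is the change of the bin relative to the rest of its gene. Differences are given as knockout over control on the log2 scale. Of the 382 bins, 0 had an adjusted p under 0.05 in the authors' deposited table, which has the form that DEXSeq writes, against 0.00738% of all bins with a p. An unadjusted p under 0.05 was found for 6 bins (1.57%), near the 1.67% of all bins. The bin values of the 8 genes spread from -0.50 to 0.43 with a median of 0.002 and an SD over bins of 0.145, against an SD of 0.129 over all bins. The exon table gives bin numbers without coordinates, so the bin that holds the IQ domain was not placed.

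In Cacna1d 48 bins were listed, with mean counts from 20.5 to 355. Their differences ran from -0.43 to 0.43 with a median of 0.03. E017 had the smallest p of the gene, with a log2 difference of 0.43 (p = 0.0158, adjusted p = 1) and a mean count of 44.5 in the authors' deposited table. Its neighbour E016 was at 0.24 and E018 at 0.09. E047 had the lowest value, -0.43, at a mean count of 31.5 (p = 0.0868, adjusted p = 1) in the authors' deposited table. The longest stretches of adjoining bins with the same sign held 5 bins each: E014 to E018 and E034 to E038, above 0, and between them E029 to E033, below 0, from -0.30 to -0.08.

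Cacna1a held 3 of the 6 bins with an unadjusted p under 0.05, out of 58. In the authors' deposited table E063 was at 0.32 (p = 0.00953, adjusted p = 1), the smallest p of all 382 bins, and the adjoining E062 at 0.33 (p = 0.0496, adjusted p = 1). E039 was at -0.24 (p = 0.0271, adjusted p = 1) in the authors' deposited table, and its neighbour E040 at -0.25 (p = 0.0787). Of its 36 bins up to E044, 27 were below 0, and of the 22 bins from E045 on, 19 were above 0, with medians of -0.06 and 0.16. The place of this division was chosen after the values were seen. Spearman's rho between bin value and bin number was 0.39 in Cacna1a and -0.44 in Cacna1c, the most positive and the most negative of the 8. Both lie between the 5th and 95th percentiles of the 794 genes with at least 30 bins, -0.48 and 0.47, so such trends are common in the exon table.

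The remaining members held 2 such bins. E020 of Cacna1e was at 0.22 (p = 0.0335, adjusted p = 1) with a mean count of 164, and E048 of Cacna1g at -0.50 (p = 0.0431, adjusted p = 1) with a mean count of 32.2, both in the authors' deposited table. Cacna1b (61 bins), Cacna1c (48), Cacna1h (33) and Cacna1i (40) had 0. Their smallest p-values were 0.0992 at E009 for Cacna1b, 0.0887 at E003 for Cacna1c, 0.0715 at E044 for Cacna1h and 0.154 for Cacna1i, each with an adjusted p of 1. Cacna1e, the gene with the highest counts, had the narrowest spread of bins (SD 0.0932) and Cacna1h, with the lowest, the widest (SD 0.188).

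**Figure D3:**
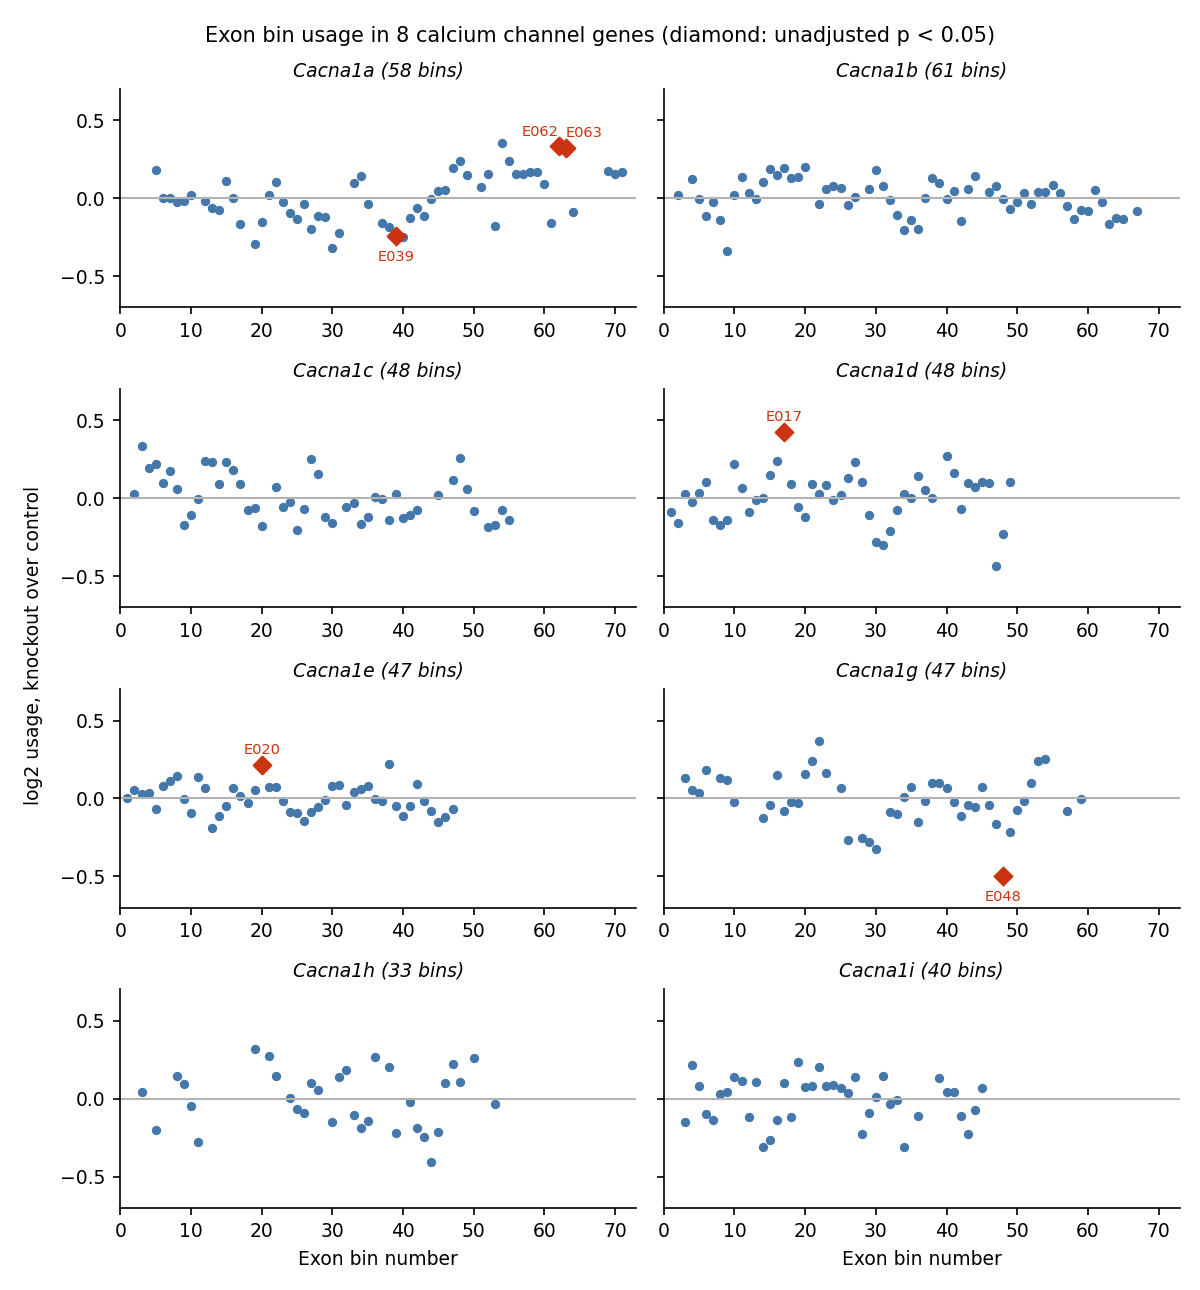
Each panel is a gene and each point an exon bin, with the bin number on the x axis and the log2 difference in usage, knockout over control, on the y axis. Red diamonds mark the 6 bins with an unadjusted p under 0.05. Points of neighbouring bins tend to have like values, least so in Cacna1i. In Cacna1a most bins up to E044 lie below 0 and most later ones above.

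Bins with adjoining numbers tended to have like values, to a degree that differed between the genes. Pearson's correlation between a bin and the next was 0.52 in Cacna1a (51 pairs), 0.55 in Cacna1b (55), 0.55 in Cacna1c (42), 0.45 in Cacna1d (46), 0.34 in Cacna1e (46), 0.63 in Cacna1g (39), 0.38 in Cacna1h (22) and 0.16 in Cacna1i (37). The median of the 8 was 0.48. Over the 794 genes with at least 30 bins it was 0.46, so this is a feature of the exon table and not of the calcium channels. Adjoining bins share libraries and can share reads that span both, and their p-values are therefore not independent of each other.

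The partners of the alpha1 subunits were taken from 9 lists, of which 55 of 62 genes were in the gene table. Of these, 0 had an adjusted p under 0.05 in the authors' table, against 0.0197% of all genes, and 2 an unadjusted p under 0.05, against 1.86%. Of the 55, 31 (56.4%) were higher and 24 lower in A, near the 52.9% of all genes that were higher, with a median log2 difference of 0.02.

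Auxiliary subunits carry the alpha1 subunit to the membrane and tune its gating. The 4 beta subunit genes, which bind the alpha1 subunit inside the cell, ran from -0.04 for Cacnb3 to 0.07 for Cacnb2 on the log2 scale, 2 higher and 2 lower in A. The 4 alpha2delta genes have products that sit outside the membrane and bind gabapentin in some cases. They ran from -0.25 for Cacna2d4, at a mean normalized count of 46.5, to 0.12 for Cacna2d2, with 1 higher in A. The 6 listed genes of the gamma family, most of which serve AMPA receptors, were all higher in A, from 0.02 for Cacng2 to 0.15 for Cacng5. Cacna1s, the alpha1 subunit of skeletal muscle, had a log2 difference of -0.76 in the authors' deposited table (p = 0.134, adjusted p = 1). Of 4 muscle markers 3 were listed, from -0.41 to 0.00, and their part in that value was not tested. Nalcn, the related sodium leak channel, was at 0.04.

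In the list of calmodulin and its relatives, Calm2, which encodes calmodulin, the ligand of the IQ domain, was the lowest, with a log2 difference of -0.07. Caln1, a calmodulin-like protein of the Golgi, was the highest and had a log2 difference of 0.23 in the authors' deposited table (p = 0.0172, adjusted p = 1) at a mean normalized count of 1616. Cabp1, which competes with calmodulin for the channel, had a mean normalized count of 2758 in the authors' deposited table and a log2 difference that rounds to 0. Among the small GTPases and adaptors that modulate L-type and other channels, Stac2, an adaptor that binds L-type channels, had a mean normalized count of 449 and a log2 difference of 0.39 in the authors' deposited table (p = 0.0117, adjusted p = 1). It was the highest of that list and Stac3 the lowest, at -0.45 with a mean normalized count of 22.5.

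Release-site proteins that tether presynaptic channels differed little: the 10 genes ran from -0.08 for Rims1 to 0.09 for Apba1. The 12 postsynaptic anchors and kinases ran from -0.05 for Akap9 to 0.82 for Shank1, a scaffold of the postsynaptic density with a mean normalized count of 2306 in the authors' deposited table (p = 0.142, adjusted p = 1). The 5 calcium-activated potassium channel genes, which open on the calcium that these channels admit, ran from -0.12 for Kcnn2 to 0.22 for Kcnn3. Among exon bins, 50 partner genes had 835 bins with a p, of which 0 had an adjusted p under 0.05, against 0.00738% of all bins, and 18 (2.16%) an unadjusted p under 0.05, against 1.67%.

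**Figure D4:**
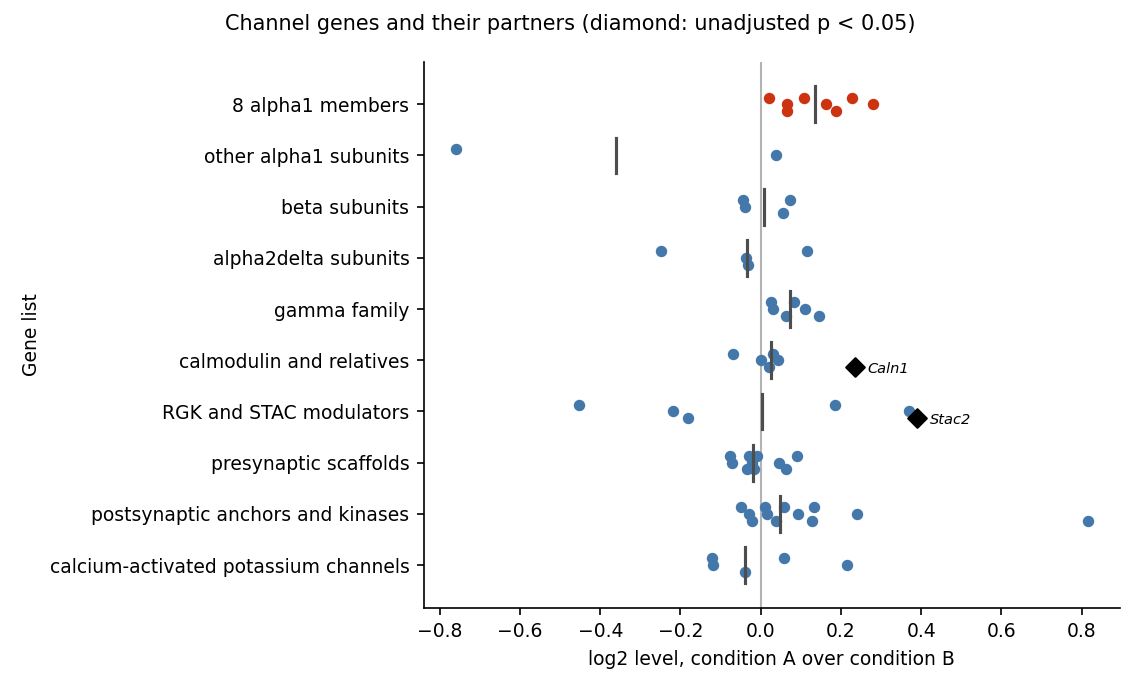
Each point is a gene, with its log2 level in condition A over condition B on the x axis and its list on the y axis. The 8 alpha1 genes are red, partner genes blue, vertical bars are list medians, and black diamonds are Stac2 and Caln1, the genes with an unadjusted p under 0.05. The alpha1 genes lie between 0.02 and 0.28, and the lists of beta and alpha2delta subunits lie on both sides of 0.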

How the data were processed

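The 3 tables held the authors' own group summaries. TopHat2 2.0.6, Bowtie2 2.02.0, SAMtools 01.19.0, HTSeq, DESeq and the build mm9 appear in the submitters' processing notes, with no roles. Per the file headers, the gene table gives a deposited mean normalized read count (a signal), the ratio and log2 ratio of condition B over A, and p-values. The deposited exon table gives per bin a mean normalized count (signal), a dispersion score (not used), a log2 ratio of control over Adar2 and p-values. The deposited editing table gives the percent of edited reads by group, an adjusted p-value and a position, another kind of value. No source used here names the site caller, the tests or the depth. Separate means for A and B (2 columns) were left out because no genotype is attached to them. Listed genes had a mean count of at least 15.0 and listed bins of at least 20.0.

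Log2 ratios were turned to A over B and to knockout over control. The authors' adjusted p under 0.05 was the threshold. Tests planned for values per library could not be run. Alternatives were adjusted by Benjamini-Hochberg or Simes in Python 3.11.15, and the code was tested on simulated data. The 8 gene IDs matched by symbol. Principal GENCODE M21 transcripts were translated and aligned with MAFFT 7.526 and Biopython 1.88. All 8 members were named, and of their bins those with an unadjusted p under 0.05 and the smallest p of each gene. Of each partner list the highest, the lowest and those with an unadjusted p under 0.05 were named. A gene of the partner lists is counted but not reported by name here. The amino acid sites named were those nearest in control percent, 3 per Cacna1d site, those at 0, and, after the values were seen, 2 sites of the same exchange. The members and lists were chosen with earlier results of these data known.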

Additional observations from a re-analysis of the deposited data

How the results depend on the processing

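No result changed its call under the 13 alternatives for thresholds, adjustment and minimum mean counts. Several of these could not have changed a call, so they are weak evidence of stability. The authors' adjusted p-values of channel genes, partner genes and channel bins were all at the maximum, so a looser threshold could add none. Levels per kilobase carry no call and are not among the 13. They moved with the length used. Both Cacna1d sites passed at an adjusted p under 0.01, under 0.001, and with a difference of at least 10 points. Their adjusted p-values in the authors' table (1.89e-13 and 2.01e-05) and falls (37.6 and 19.2 points) had fixed this beforehand. No channel gene passed at an adjusted p under 0.1, when adjusted over the listed genes alone, or with a mean count of at least 100. The lowest mean count among the channel genes was 1046 (Cacna1h), so that minimum removed none of them. No bin of the 8 genes passed at an adjusted p under 0.1, over the listed bins alone, with a mean count of at least 50 (223 bins), or by a Simes p per gene, where each adjusted p was 1. The same gene alternatives, added after seeing the data, left 0 partner genes. Bonferroni for sites (no unadjusted p listed) and leaving out each library were not run. No paired analysis was possible because the tables hold no values per library. Unknown coverage limits the values listed as 0.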

Other observations

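Neighbouring editing sites of a gene did not always get the same call. A site is said to fall when it is lower in the knockout with an adjusted p under 0.05. A site without this call can still be lower, as both Jmjd4 sites were. The editing table held 14 pairs of neighbouring sites of the same gene at most 20 bases apart. Both sites fell in 4 pairs, 1 of them fell in 4 pairs, and neither fell in 6. Only the Cacna1d and Grik2 pairs are amino acid sites, and the rest lie in 3′ UTRs, mostly in SINE repeats. A fall was called for 86.4% of amino acid sites and 39.2% of all sites, so the pairs mix classes with unlike shares. The Slc35e2 pairs share a site. The Cacna1d pair, 8 bases apart, was among the 4 in which both fell, with pairs in Grik2, Kif3c and Usp45. The Grik2 pair, 13 bases apart, kept different shares of the control level as computed from the deposited percentages, 2.42% at Y/C and 39.3% at I/V, where both Cacna1d sites were listed at 0.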
